A study of Mus musculus with 6 samples.

Results

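The regions described here are stretches of open chromatin that were listed in neural stem and progenitor cells (NSPCs) with the Sox2 enhancer cluster SRR2–18 deleted (ΔSRR2–18) but not in parent NSPCs, lay away from gene starts, and held no exact AP-1 motif at their centre. They numbered 36927 of the 107480 intervals in the ΔSRR2–18 list, and of 190365 intervals in the lists of both genotypes. A region was a member when it overlapped no parent interval by 1 bp or more, its strongest summit was more than 1 kb from every annotated transcription start site (TSS), and neither TGACTCA nor TGAGTCA was found within 100 bp of that summit. The members were thus chosen by their presence in the lists and the AP-1 letters at their summits, so the count and the absence of AP-1 are descriptions. Of all ΔSRR2–18 intervals, 67794 (63.1%) overlapped no parent interval. Of these, 3745 lay at promoters, 27122 were distal with an exact AP-1 motif, and the members made up the remaining 57.7% of the 64049 distal ones.

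ATAC-seq, in which a transposase cuts accessible DNA, was performed on 3 cultures of parent NSPCs (129S1/Cast F1 hybrid, Sox2-mCherry (129), clone 5B, no deletion) and 3 cultures of ΔSRR2–18 NSPCs (the same hybrid and mCherry tag, clone 47D, homozygous SRR2-18 deletion). Both lines were derived from mouse embryonic stem cells and grown in N2B27 medium with EGF and bFGF on poly-D-lysine and laminin. Each genotype is 1 clone, so effects of the clone and of the deletion cannot be told apart. The deposited peak lists were pooled over the cultures of a genotype, so no value has a replicate error, no difference between genotypes could be tested, and the 95% intervals given below cover counting error only. The lowest background of the lists was 38.8 reads in the parent and 19.7 reads in ΔSRR2–18 NSPCs, a ratio of 1.98. Read depth per library was not analysed here, and its part in the lists was not tested. Promoter summits in the ΔSRR2–18 list were found at 9 of 9 marker genes of neural stem and progenitor cells, at 1 of 4 astrocyte and 1 of 4 pluripotency markers, and at 4 of 5 markers each of neurons, oligodendrocyte lineage, mesenchyme and epithelium. The astrocyte markers Gfap, Aqp4 and Aldh1l1 and the pluripotency markers Pou5f1, Nanog and Zfp42 had none. The parent list had them at 3 of 5 neuronal, 3 of 5 mesenchymal and 1 of 5 epithelial markers, and at as many markers as the ΔSRR2–18 list for the other cell types. An open promoter does not show that a gene is expressed.

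AP-1 is a dimer of FOS, JUN and related basic leucine zipper proteins that binds a palindromic 7-base site and acts at enhancers in response to growth factors and stress. Related dimers with ATF or MAF proteins accept altered sites, and AP-1 often binds beside TEAD factors, the DNA-binding partners of YAP and TAZ in the Hippo pathway, and RUNX factors. SOX2 itself recognises a SOX motif and maintains neural progenitors. The motifs at these regions were therefore compared with those of their own flanks, windows of the same 201 bp centred 500 bp to either side of the summit, and with 3 other distal classes: deletion-only regions with AP-1 (27122), parent-only regions without AP-1 (39815) and regions without AP-1 shared by both genotypes (21059, as listed in ΔSRR2–18 NSPCs).

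The sequences below show motifs that were more frequent within 100 bp of the summits than in flanks. Each is centred on the match and not on the summit. The EBF, RUNX and CRE matches lay 84, -90 and 97 bp from the summit, and those of TGAGTCG and TTAGTCA 55 and -51 bp. In all of these the summit lies outside the printed bases. Each is 101 bases of mm10 (GRCm38), forward strand, from the member, of those on the chromosomes used for printing, with the highest fold enrichment among those that hold the motif, with the match in capitals. The TGAATCA, TEAD, EBF, CRE, HOX-PBX and RUNX examples follow a set rule, whereas the other 4 AP-1-like forms and ATAAATCA were added after their values were seen. The first sequence serves for both TGAATCA and HOX-PBX, whose consensus TGATTNAT, read on the other strand, contains it.
ATGAATCA, nearest Rsl24d1, chr9:73472666-73472766: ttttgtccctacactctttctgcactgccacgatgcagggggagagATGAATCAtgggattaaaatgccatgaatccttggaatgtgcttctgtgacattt
TTAGTCA, nearest Tmtc3, chr10:100460643-100460743: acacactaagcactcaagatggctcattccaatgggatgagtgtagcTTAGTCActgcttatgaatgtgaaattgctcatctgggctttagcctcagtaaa
TGACTCG, nearest Ezr, chr17:6749205-6749305: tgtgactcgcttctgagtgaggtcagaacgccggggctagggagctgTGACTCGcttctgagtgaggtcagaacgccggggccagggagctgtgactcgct
TGAGTCG, nearest Fbxo7, chr10:86116492-86116592: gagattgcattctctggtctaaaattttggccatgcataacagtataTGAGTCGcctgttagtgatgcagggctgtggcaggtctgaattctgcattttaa
TTACTCA, nearest Flrt2, chr12:95790276-95790376: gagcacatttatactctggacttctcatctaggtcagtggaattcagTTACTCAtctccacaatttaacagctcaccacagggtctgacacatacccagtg
TEAD, nearest Rims1, chr1:22422300-22422400: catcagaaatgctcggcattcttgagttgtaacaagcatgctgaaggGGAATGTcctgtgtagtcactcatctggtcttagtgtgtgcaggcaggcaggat
EBF, nearest Serpinb8, chr1:107836916-107837016: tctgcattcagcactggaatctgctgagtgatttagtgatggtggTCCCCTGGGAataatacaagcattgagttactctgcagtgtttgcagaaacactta
CRE, nearest Emp1, chr6:135700911-135701011: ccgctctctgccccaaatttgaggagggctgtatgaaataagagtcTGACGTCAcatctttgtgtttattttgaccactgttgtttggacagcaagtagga
RUNX, nearest Hdgfl1, chr13:26518497-26518597: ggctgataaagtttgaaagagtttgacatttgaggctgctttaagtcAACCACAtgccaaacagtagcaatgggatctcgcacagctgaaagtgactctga
ATAAATCA, nearest Atp2b1, chr10:98831635-98831735: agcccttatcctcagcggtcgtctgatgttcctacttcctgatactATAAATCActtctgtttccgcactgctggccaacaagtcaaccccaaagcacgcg

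These regions spanned a wide range of strength. The region near Rims1, a presynaptic scaffold gene, lay within that gene, 106506 bp from its TSS, and had the highest fold enrichment of all members, 37.2, from 1128 summit reads. Its TEAD match was centred 39 bp from the summit. The region in Ezr, which links membrane to actin, reached 35.1 and carried TGACTCG in a tandemly repeated stretch, 15 bp from the summit. The third, 358158 bp from the TSS of Rsl24d1 and outside any gene, reached 34.6 and held both ATGAATCA and a TEAD match.

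The commonest shared feature of the members was a motif 1 base away from AP-1. One of the 38 such 7-mers, counted as 19 forms with their reverse complements, was within 100 bp of the summit in 70.9% of members (95% Wilson interval, 70.5–71.4), against 43.9% of their flank windows. The share was 60.3% in deletion-only regions that also had an exact site, 50.3% in shared regions and 43.7% in parent-only regions, where the flanks had 44.7%. The excess was uneven. All 19 forms were more frequent at summits than in flanks, with ratios from 1.11 upward, but 5 forms exceeded a ratio of 3 and the next was 2.17.

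Of these 5 forms, CGACTCA and CGAGTCA had the highest ratios, 7.08 (95% interval, 6.13–8.16) and 6.93 (6.18–7.78). Both contain a CpG and were rare, at 2.30% and 3.44% of members. Within 50 bp of the summit the ratio of CGACTCA was 10.6. TGACTAA was found in 14.3% of members, 5.70 times as often as in flanks. TGAATCA was the most common, in 16.1% of members at a ratio of 5.25. TGAGTAA was found in 9.18% at a ratio of 3.48. In parent-only regions the ratios of the 5 forms ran from 0.76 for TGACTAA to 1.102 for CGAGTCA, so none was above its flanks beyond the counting interval.

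Together the 5 forms, a group chosen after their ratios were seen, were present at 40.2% of members (39.7–40.7) and 8.73% of member flanks. Deletion-only regions with exact AP-1 had one in 21.5%, shared regions in 15.5% and parent-only regions in 6.46%, below the 7.89% of parent-only flanks. Of the members, 13080 held 1 of the forms, 1676 held 2 and 90 held 3. Matches were concentrated at the summit. Within 20 bp of it there were 76.4 matches per 1000 members in each 20 bp, against 9.44 beyond 400 bp. The same central density was 30.5 in deletion-only regions with AP-1, 22.2 in shared regions and 6.54 in parent-only regions.

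**Figure D1:**
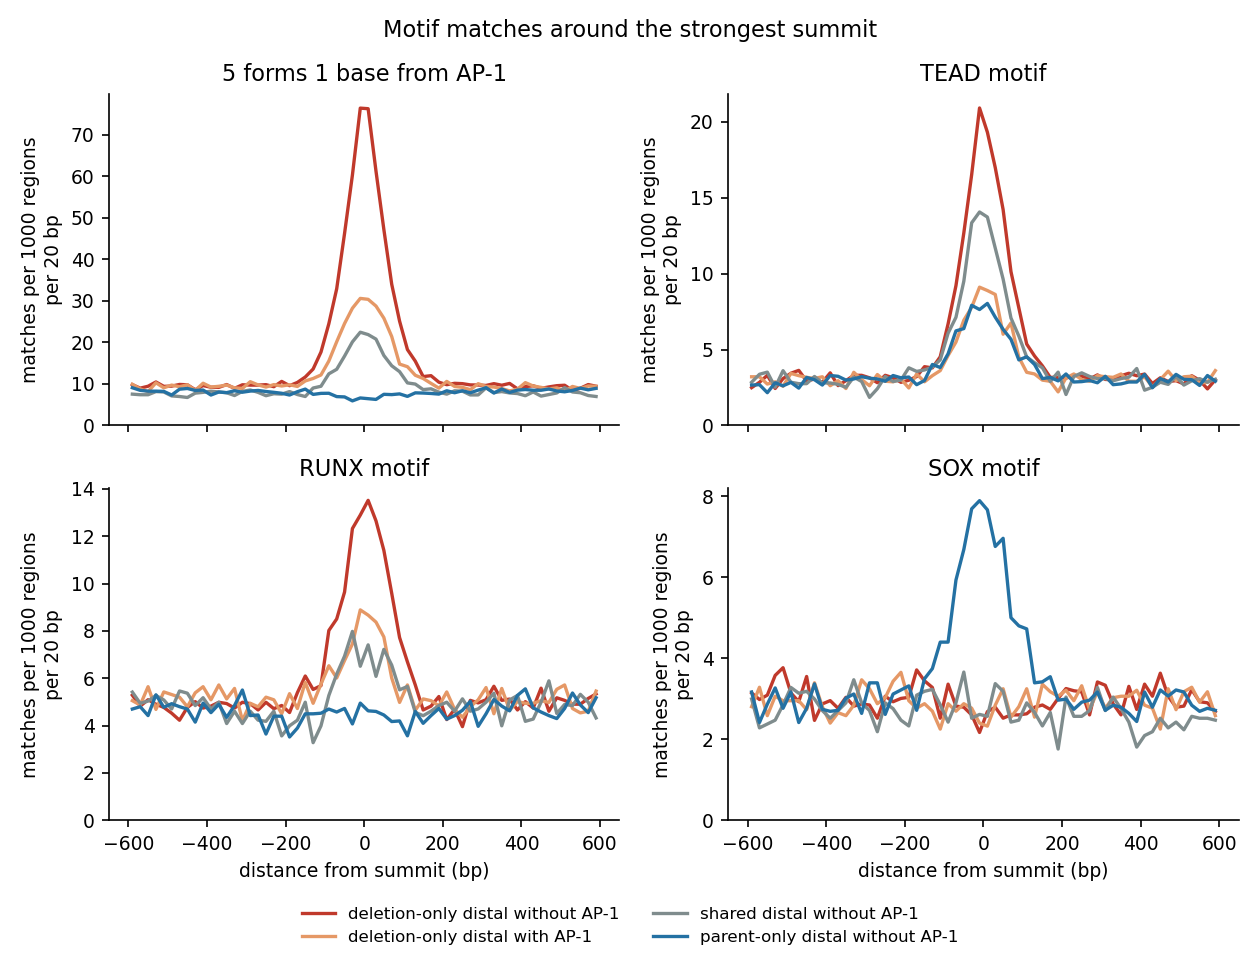
Matches per 1000 regions in 20-bp steps (y) against distance from the strongest summit in bp (x) for the 5 AP-1-like forms, TEAD, RUNX and SOX, with a line for each distal class. In deletion-only regions without AP-1 the first 3 peak at the summit. Within 20 bp of it they have 76.4, 20.1 and 13.2 matches in each 20 bp, whereas the SOX line peaks only in parent-only regions.

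TEAD was the leading motif unrelated to AP-1 among the common ones. ACATTCC was found in 12.6% of members (12.2–12.9), 4.42 times as often as in flanks (4.21–4.65). The ratio was 2.24 in deletion-only regions with AP-1, 2.23 in parent-only and 3.24 in shared regions. TEAD was less common among members with one of the 5 AP-1-like forms (9.43%) than among members without (14.7%). In deletion-only regions with AP-1 these shares were 5.13% and 6.95%. Both kinds of motif together were still raised, in 3.79% of members against 0.25% of flanks, a ratio of 14.9 (12.8–17.3). RUNX, TGTGGTT, was found in 9.84% of members at a ratio of 2.11 (2.02–2.21). Its ratio was 1.38 in deletion-only regions with AP-1, 1.30 in shared regions and 0.94 in parent-only regions. It too was less common beside one of the 5 forms, at 8.66% against 10.6%.

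EBF, the palindromic motif of early B cell factors that also act in neurons, had a ratio of 4.77 (4.13–5.51) but was present in only 618 members (1.67%). CRE, TGACGTCA, the site of CREB and of ATF-JUN dimers, was present in 129 members at a ratio of 2.77 (2.13–3.62), with intervals that overlapped those of the other 3 classes. Within 50 bp of the summit the CRE ratio was 4.40. The MAF half-site TGCTGAC had a ratio of 1.91 in members and 2.45 in deletion-only regions with AP-1. TFAP2, GCCNNAGGC, had 1.90, close to the 1.90 to 2.11 of the other classes. Of 42 motifs searched beside AP-1, 27 were more frequent at member summits than in flanks beyond the counting interval, and 9 were less frequent. Over all ΔSRR2–18 summits 66.7% of motifs were more frequent, so the number of raised motifs does not set the members apart.

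HOX-PBX, the composite motif TGATTNAT of HOX proteins with PBX partners, was present in 13.5% of members at a ratio of 3.54. Most of this came from one version. TGATTCAT, which contains the AP-1-like form TGATTCA, was found in 8.20% of members at a ratio of 8.41 (7.76–9.11). TGATTTAT, which lacks it, was found in 3.40% at 2.52 (2.32–2.74), TGATTAAT in 1.52% at 1.83 (1.64–2.05) and TGATTGAT in 0.86% at 1.098 (0.96–1.26). In parent-only regions TGATTTAT had a ratio of 0.55 and in deletion-only regions with AP-1 it had 1.19. The motif searched for CDX and posterior HOX factors, CAATAAA or CCATAAA, was found in 8.62% of members and 8.41% of flanks, a ratio of 1.03 whose interval, 0.98–1.07, included 1. It was below flanks in the other 3 classes, at 0.54 to 0.83. Members rose above their flanks (1.27) when windows were compared at equal GC content. The other classes were not compared at equal GC content, so the 1.27 cannot be set against their ratios.

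The SOX motif was not raised at these regions. Its letters, CCATTGT, were found in 2.61% of members and 2.97% of flanks, a ratio of 0.88 (0.82–0.95). Nor was it raised in deletion-only regions with AP-1, at 0.93 (0.86–1.02), or in shared regions, at 1.09 (0.99–1.21). Parent-only regions held it in 6.06%, at a ratio of 2.17 (2.05–2.30). The 3 lowest ratios in members belonged to the homeodomain core TAATTA (0.37), the T-box motif (0.47) and CACCTG, the E-box of ZEB and SNAI repressors (0.48). In parent-only regions TAATTA had 1.11, CACCTG 1.04 and the T-box motif 0.60. All 3 were also below flanks in deletion-only regions with AP-1, at 0.41 for TAATTA, 0.64 for CACCTG and 0.78 for the T-box motif, and in shared regions, at 0.47, 0.85 and 0.47. The CTCF core motif was raised in members, at a ratio of 1.81 (1.63–2.00), or 3.11 within 50 bp of the summit. It was present in 1.90% of members, 0.89% of deletion-only regions with AP-1, 4.90% of parent-only and 17.5% of shared regions.

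**Figure D2:**
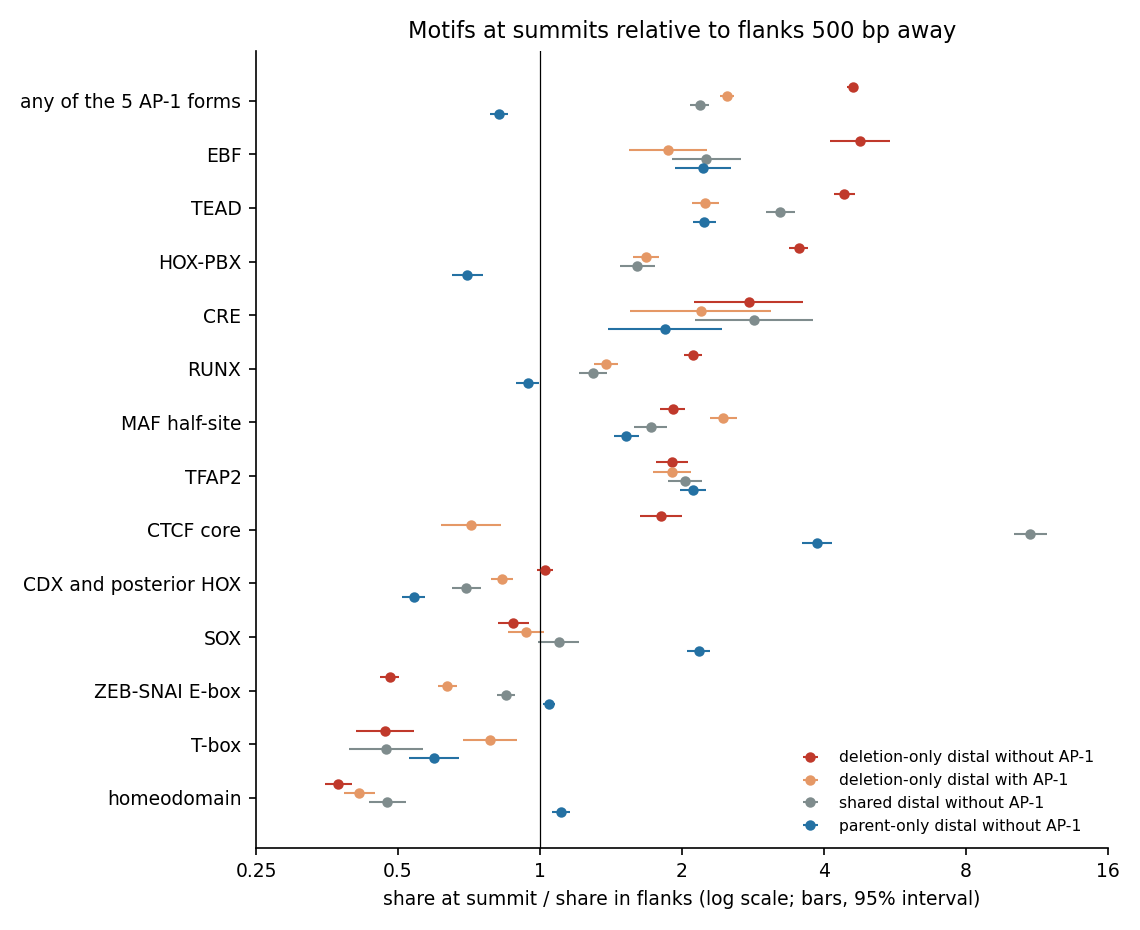
Ratio of the share of regions with a motif at the summit to its share in flank windows 500 bp away (x, log scale) for 14 motifs or groups (y), with points for the 4 distal classes and bars for the 95% counting interval. Deletion-only regions without AP-1 sit highest for the 5 AP-1-like forms, EBF, TEAD, HOX-PBX and RUNX, and lie below 1 for SOX (0.88), where parent-only regions reach 2.17.

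A count over all 7-mers used no motif list but the same windows and flanks. Its ratios for letters named above are therefore the same values and add no separate support. Of 8192 distinct 7-mers, 5456 were present in at least 1% of members, and 66 of these were more than 2 times as frequent at summits as in flanks. CGACTCA had the highest ratio, followed by CGAGTCA, then by TGACTAA and then by TGAATCA. The rest of the top 12 were GACTCGC (5.02), ACGAGTC (4.51), ATTAGTC (4.12), ATGACTA (3.94), ATGAATC (3.84) and ACGACTC (3.80), which overlap those forms, with the TEAD letters ACATTCC (4.42) and GCATTCC (3.68), another version of the TEAD site.

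Motif content varied with the strength of the regions. The median fold enrichment was 8.91 (quartiles, 6.15–13.6) in members and 10.8 (7.07–16.8) in deletion-only regions with AP-1, from a median of 262 and 330 summit reads. Members with one of the 5 AP-1-like forms had a median of 9.68, between that of members without (8.42) and regions with exact AP-1. Medians were 9.54 with 1 form, 10.9 with 2 and 14.4 in the 90 members with 3. From the weakest to the strongest of 10 equal parts of the members, the share with one of the 5 forms rose from 32.4% to 51.9%, TEAD from 11.6% to 15.6% and RUNX from 7.72% to 13%, while the CTCF core fell from 3.03% to 0.81%. SOX stayed between 2.22% and 3.41%, with no direction. In all, 55.9% of members held one of the 5 forms, TEAD, RUNX or the CTCF core, against 16.3% of flanks, and 44.1% held none. Those without any had a median fold enrichment of 8.34.

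**Figure D3:**
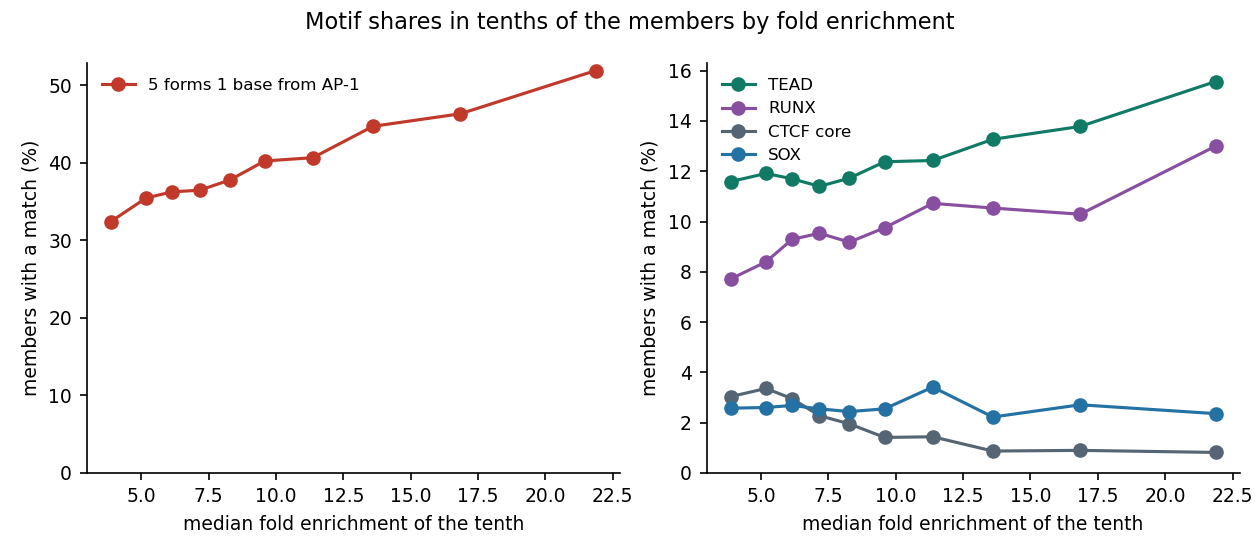
Share of members with a motif match within 100 bp of the summit (y, %) against the median fold enrichment (x) of each of 10 equal parts of the members. The 5 AP-1-like forms rise from 32.4% to 51.9%, TEAD and RUNX rise less, and the CTCF core falls from 3.03% to 0.81%.

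In GC content, gene-body share and distance to genes, members were closer to the deletion-only regions with AP-1 than to the other classes, but not in CpG-dense windows. The GC content of the summit window was 45.6% in members, 45.9% with AP-1, 50.4% in parent-only and 51.4% in shared regions, and the flanks of members had 42.4%. Repeats, as soft-masked in the reference genome, covered 10.3% of member summits and 23.8% of their flanks. Gene bodies held 55.6% of members (55.1–56.1) and 55.7% of deletion-only regions with AP-1, against 62.3% of parent-only and 58.9% of shared regions. The median distance to the TSS of a protein-coding gene was 55.1 kb in members, 48.5 kb with AP-1, 40.6 kb in parent-only and 27.4 kb in shared regions. Members with and without the 5 forms were alike in this, at 55.6 and 54.8 kb. CpG-dense windows were found in 1.71% of members, against 0.37% of deletion-only regions with AP-1, 1.03% of parent-only and 7.16% of shared regions.

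Some members lay close to a limit of the rule. A parent interval ended within 100 bp of 238 members, which had a median fold enrichment of 6.84, and 62 shared regions without AP-1 overlapped a parent interval by 100 bp or less, with a median of 7.04. The 186 members with a TSS up to 100 bp beyond the 1 kb limit had a median of 6.197, and the 182 deletion-only regions without AP-1 up to 100 bp inside it had 6.96. The nearest exact AP-1 motif lay up to 10 bp beyond the window around the summit in 469 members, with a median of 11.1, and in the outermost 10 bp of that window in 608 deletion-only regions with AP-1, with a median of 11.3. An exact AP-1 motif lay elsewhere in the interval of 4531 members (12.3%), whose median was 10.9. The optimal parent list, the other one deposited, overlapped 1410 members (3.82%).

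Assigned to the nearest protein-coding TSS within 50 kb, 17535 members fell to 8481 of 21938 genes (38.7%), and 13788 deletion-only regions with AP-1 fell to 7847 genes (35.8%). The genes with the most members were large. Pde4d, a cyclic AMP phosphodiesterase, and Prickle2, a planar cell polarity gene, had 19 each. Psd3 had 18 and Kalrn had 17. Arhgap28, Foxp1, Palld, Sorbs2 and Tcf4 had 15 each, and Dlc1, Dst and Filip1l had 14 each. Palld and Sorbs2 encode actin-associated proteins. The mix of classes differed between these genes. Arhgap28 had 15 members, 6 regions with AP-1 and 0 parent-only or shared distal regions without AP-1. Prickle2 had 3 regions with AP-1 and 13 parent-only ones, and Tcf4, a bHLH factor of neural development, had 26 parent-only regions.

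Among the gene lists, members outnumbered deletion-only regions with AP-1 most at patterning factors. Members were assigned to 71.2% of the genes of 4 lists of patterning factors, 75.8% of the genes of the other 11 lists and 38.7% of all protein-coding genes. Over all protein-coding genes there were 1.27 members for each region with AP-1. At the 4 patterning lists, grouped after their values were seen, there were 63 members to 10 regions with AP-1. The same lists had 48 parent-only and 53 shared regions without AP-1, so these classes also outnumbered regions with AP-1 there. The other 11 lists together had 253 members to 206 regions with AP-1, with 317 parent-only and 207 shared regions without it. At anterior HOX genes (paralog groups 1 to 4), which pattern the hindbrain and neck, there were 14 members at 7 of 12 genes and 1 region with AP-1, with 5 members at Hoxc4, 3 at Hoxb1 and 2 at Hoxd3. At posterior HOX genes (groups 9 to 13), which pattern the trunk and tail, there were 13 members at 8 of 16 genes and 1 region with AP-1. Hoxb9 had 3 members, and Hoxc9, Hoxc11 and Hoxc12 had 2 each. No parent-only region without AP-1 was assigned to posterior HOX genes, and 11 were assigned to anterior ones.

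The 13 regions at posterior HOX genes had low fold enrichments for members, with a median of 6.47. Their summit reads were not low throughout. They ran from 96 to 1057, on both sides of the member median of 262. In fold enrichment, 9 of the 13 lay below the member median and 6 below the member lower quartile. The strongest by fold enrichment lay in a gene body on chromosome 11 at 96252491 to 96253064, 18670 bp from the TSS of Hoxb9, at 11.95 from 967 reads. Another near Hoxb9, 1381 bp from its TSS, had 6.88 from 1057 reads. Near Hoxc12, a region on chromosome 15 at 102934781 to 102935371 had 11.8 and one at 102942848 to 102943637 had 10.3. The lowest fold enrichments, 3.10 near Hoxc11 and 3.46 near Hoxd11, came with IDR scores of 548 and 590, near the list minimum of 540. Only 1 of the 13 held one of the 5 AP-1-like forms.

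Forebrain factors had members at all 12 genes, against 38.7% of all protein-coding genes, 18 in total, against 5 regions with AP-1. Emx2 and Six3 had 3 each. Parent-only regions without AP-1 were as many there, 19. Spinal homeodomain factors had 18 members at 10 of 12 genes and 3 regions with AP-1, led by Pou4f1 with 4 and by Isl1 and Mnx1, factors of sensory and motor neurons, with 3 each. At the 4 patterning lists, 22.2% of members held one of the 5 forms, against 40.2% near all protein-coding genes. The low share came from the posterior HOX (7.69%) and spinal (11.1%) lists, whereas the anterior HOX (35.7%) and forebrain (33.3%) lists were near the 37.5% of the other 11 lists. Member summits at the 4 patterning lists had a GC content of 56.4% and 10.4 CpGs per window. The values were 47.0% and 2.80 near all protein-coding genes, and 48.8% and 3.72 at the other 11 lists. The part of base composition in these counts was not tested. Caudal progenitor genes had 8 members at 5 of 12 genes (41.7%, against 38.7% of all protein-coding genes) and 6 regions with AP-1. There were 2 members each at Brachyury (T), Msgn1 and Evx1 and 0 at Cdx1, Cdx2 and Cdx4. Cdx4 had 2 deletion-only distal regions with AP-1 and 1 parent-only distal region without it. Cdx1 and Cdx2 had 1 shared distal region without AP-1 each. Promoter regions, and parent-only or shared regions with AP-1, were not counted at these genes.

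**Figure D4:**
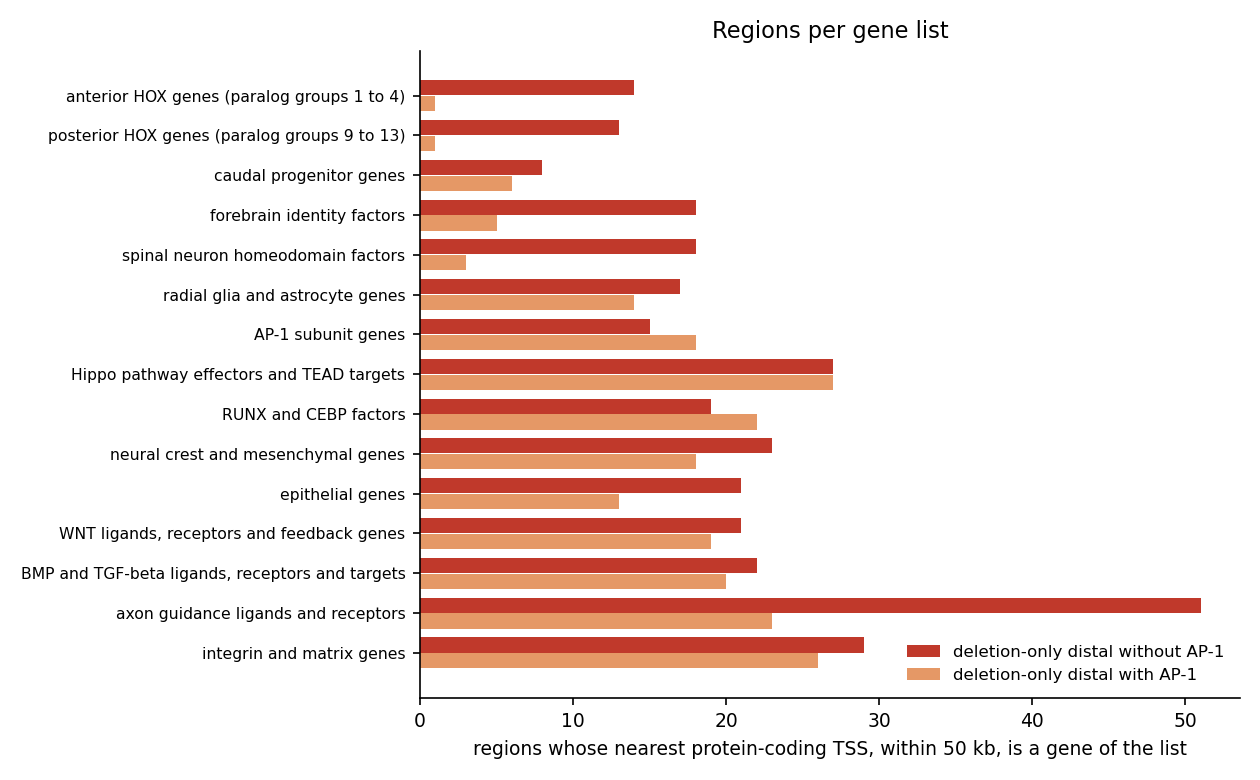
Number of regions assigned to each of 15 gene lists (x) by nearest protein-coding TSS within 50 kb, with a bar for deletion-only distal regions without AP-1 and a bar for those with AP-1. The HOX, forebrain and spinal lists have 63 regions without the motif and 10 with it, and the Hippo list has 27 of each.

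Axon guidance genes held the most members of any list, 51, against 23 regions with AP-1 and 40 parent-only regions. Members were assigned to 11 of the 12 genes (91.7%). The share was 75.8% over the 11 lists outside the patterning factors and 38.7% over all protein-coding genes. The secreted repellents Slit3 and Slit2 had 10 and 9, and the receptor Epha4 had 7. Members at this list lay in gene bodies in 33 cases, and the part of gene length in the count was not tested. Genes of the Hippo pathway and its targets had 27 members, 27 regions with AP-1 and 36 parent-only regions, led by the target genes Ccn1 and Amotl2 with 6 each and by Tead1 with 4. AP-1 subunit genes had 15 members, 18 regions with AP-1 and 27 parent-only regions, with 4 members at Fos, 3 at Jdp2, and 2 each at Jun and Batf3. RUNX and CEBP factors had 19 and 22. Runx1 had 8 members, Cebpb 3, and Runx3, Cbfb and Cebpa 2 each, whereas Runx2 had 0 members and 7 regions with AP-1.

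Integrin and matrix genes had 29 members and 26 regions with AP-1, led by Itgb1 (6), Itgav (4) and Itgb3 (4). Neural crest and mesenchymal genes had 23 and 18, with 3 members each at Twist1, Zeb1, Zeb2 and Prrx1. Epithelial genes had 21 and 13, with 3 each at Grhl2, Cdh1, Krt18, Cldn4 and Tfap2c. One of the 5 forms was held by 11 of the 21 (52.4%), against 40.2% of members near all protein-coding genes. BMP and TGF-beta genes had 22 and 20, led by Bmp6 with 4 and by Tgfb2, Tgfb3, Tgfbr2 and Bmpr1a with 3 each, and WNT genes had 21 and 19, with 3 each at Wnt5a, Wnt11, Fzd1, Axin2 and Lef1. WNT genes had 46 parent-only regions and BMP and TGF-beta genes 27. Radial glia and astrocyte genes had 17 members, 14 regions with AP-1 and 56 parent-only regions, with 7 members at Nfib, 3 at Hes1, and 2 each at Vim and Sox9. For each region with AP-1, the lists from integrin to radial glia genes had 1.1 to 1.62 members, against 1.27 over all protein-coding genes. Members were assigned to 58.3% to 91.7% of the genes of each, against 38.7% of all protein-coding genes.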

How the data were processed

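The authors processed the ATAC-seq reads with the ENCODE ATAC-seq pipeline in mm10, called peaks with MACS2 and combined 3 cultures per genotype by IDR. They deposited a conservative and an optimal peak list per genotype. Each peak has a deposited IDR score, a deposited fold enrichment over local background, a deposited −log10 p, and a summit. The conservative lists were used. Pipeline settings beyond these are not given in the sources used here. One allele of each autosome is Cast, and reads unlike the reference can map less often.

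Each distinct interval took its values from its summit of highest fold enrichment. Summit reads are pileup heights solved from fold enrichment and −log10 p with the Poisson model of MACS2, whole within 0.05 for 100% of members. Fold enrichments were not compared between genotypes. TSSs came from GENCODE M21 basic. Motifs were exact matches on either strand in GRCm38, and no sequence is printed from chromosome 18. A CpG-dense window had a GC content above 50% and an observed over expected CpG above 0.6. Shares carry 95% Wilson intervals and ratios carry 95% intervals on the log scale. Python 3 with numpy, pandas and scipy was used, and overlaps, motif search and read recovery were tested on simulated data.

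The members, motifs and gene lists were chosen with earlier results of these data known. Named were the 10 genes with the most members with ties, the leading genes of each list (one gene is not reported here), the 8 highest and 3 lowest motif ratios held by at least 100 members, the SOX, CDX, HOX-PBX and CTCF motifs, the AP-1 forms and the 12 leading 7-mers. Of the 10 strongest regions, 3 are described in the report and the others in the closing observations. Alternatives changed the lists, the overlap, the IDR threshold, the promoter distance, the windows, the flanks, the chromosomes, the list length and GC content.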

Additional observations from a re-analysis of the deposited data

How the results depend on the processing

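No paired analysis was possible because the peak lists are pooled over the cultures of a genotype, and for the same reason no culture could be left out. The number of members ranged from 25993, with the ΔSRR2–18 list shortened to the number of parent intervals, to 42996 with an AP-1 window of 50 bp. The share with an AP-1 form 1 base away was 69.8% with 50% reciprocal overlap and 69.8% with an AP-1 window of 50 bp. It was 71.5% with no overlap with either parent list and 72.5% with the shortened list. Within 50 bp of the summit it was 51.9%, but this window is narrower and its flank share was not computed. The ratios of the 5 forms were higher in that window, at 4.52 to 10.6 against 3.48 to 7.08 within 100 bp. The gene-body share was 54.8% with a promoter distance of 2.5 kb and 54.7% with the shortened list. The number of raised motifs stayed between 26 and 29. For 18 named motifs under 14 alternatives, 250 of 252 ratios kept their call, above, below or not distinct from flanks by the counting interval. The exceptions were CDX and posterior HOX, which rose above flanks at 1 kb (1.06) and within GC groups (1.27). Their ratio also fell below 1 with a motif window of 50 bp (0.99), where the interval still included 1. That window moved 3 ratios by over 1.5 times, CRE to 4.40, the CTCF core to 3.11 and CGACTCA to 10.6. Merging overlapping intervals changed nothing, since none overlapped. Flanks without exact AP-1 were an alternative chosen after seeing the data. With 1 clone per genotype and pooled lists, depth per culture and culture-to-culture spread are unknown.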

Other observations

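The other 7 of the 10 strongest members had fold enrichments of 32.4 to 33.2. Those in Tmtc3 and Tjp1, a tight junction gene, held TGACTAA. Those nearest Epha7 and Flrt2 held TGAATCA, and the one near Flrt2 also held TGAGTAA. The region nearest Hdgfl1 held RUNX and was the only one of the 10 that overlapped the optimal parent list. Those nearest Lsamp and Rnase2a held none of the 5 AP-1-like forms, TEAD or RUNX.

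On autosomes, members ranged from 11.5 per Mb on chromosome 7 to 16.9 per Mb on chromosome 12, with 5.92 on X and 0 on Y. The genome had a mean of 1.35 members per 100 kb, and 38 windows of that size held 10 or more. The densest, chromosome 12 from 79900001 to 80000000, held 14 members and 4 regions with AP-1. The next, at Tnfsf15 on chromosome 4, held 13 members and 1 region with AP-1. Windows at Rad51b, Lpp, Arhgap28, Apbb2, and Bcar1 with Cfdp1 held 12 each. The nearest other member was a median of 13.7 kb away, the nearest deletion-only region with AP-1 20.7 kb and the nearest parent-only region 22.2 kb, classes that differ in size. A parent interval lay within 10 kb of 51.6% of members.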
